A study of Mus musculus with 6 samples.

Results

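The major histocompatibility complex (MHC) genes and the genes that feed peptides to their products were examined in mammosphere RNA from MMTV-Neu mice. They comprised every symbol beginning with H2-, the prefix of the mouse MHC, and 11 further symbols, B2m, Tap1, Tap2, Tapbp, Psmb8, Psmb9, Psmb10, Erap1, Nlrc5, Ciita and Cd74. Of the 24063 symbols in the deposited tables, 54 met this rule, and each was represented by its transcript with the highest mean count. They were grouped as 3 classical class I heavy chains, 28 non-classical class I heavy chains, 11 class II chains and partners, 8 genes of the light chain, peptide supply and loading, 2 transactivators and 2 other H2- symbols. Among the 28, RefSeq annotates H2-T10, H2-Bl and H2-Q5 as transcribed pseudogenes. The 2 other H2- symbols were H2-K2, a class I-type transcribed pseudogene beside H2-K1, and H2-Ke6, which encodes a steroid dehydrogenase and has no role in presentation.

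All 6 libraries came from FvB mice carrying the MMTV-HER2/Neu transgene, which places the Neu oncogene under the mouse mammary tumour virus promoter, active mainly in mammary epithelium. The 3 early lesion (EL) libraries were from animals of 14 to 18 weeks in which no tumour could be felt, with a tissue label that names both mammary and lung. The 3 primary tumour (PT) libraries were from animals over 20 weeks old that bore 1 or more primary tumours. Digested tissue of both groups was kept for 7 days on ultra-low adhesion plates in mammosphere medium, and polyadenylated RNA was sequenced. The labels name no sort or selection of cells, and separate mice are not stated for the libraries of a group, so that p-values cover only library-to-library spread, part of which may be technical.

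Class I molecules carry peptides from the cytosol to the cell surface for CD8 T cells. The proteasome cuts the peptides, the TAP transporter moves them into the endoplasmic reticulum, tapasin and other chaperones load them, and the heavy chain travels to the surface with beta-2 microglobulin. Class II molecules display peptides from endosomes to CD4 T cells and are made mainly by dendritic cells, macrophages and B cells, while most other cells make them only under interferon gamma. The protein NLRC5 drives class I genes and CIITA drives class II genes, both by docking on factors bound to a short promoter module.

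Total counts were 69759793 to 73654058 in EL and 78054335 to 85126630 in PT libraries. The EL replicate 1 table breaks off early, so 6 of the 54 genes (H2-Ab1, H2-K2, H2-Q5, H2-Q6, H2-M10.3 and H2-M10.6) were compared in the other 5 libraries, 2 EL against 3 PT. Levels are CPM values, counts per 1000000 after scaling by TMM factors, fold changes are log2 of PT over EL with a standard error (SE), and a gene was called where its edgeR quasi-likelihood adjusted p was under 0.05. Markers of cell types differed between the groups. All 6 epithelial markers were higher in PT, with summed levels of 2010.2 to 2055 CPM in EL and 6964 to 7222 CPM in PT. All 7 fibroblast markers (62046 to 66363 CPM in EL, 613 to 734 in PT) and all 6 endothelial markers (164 to 175 CPM in EL, 1.46 to 1.89 in PT) were lower. Macrophage markers were higher for 11 of 13 genes and lower for none, where 39.8% and 40.8% of all genes were. The sums of this list were 862 to 1062 CPM in EL and 1576 to 1687 CPM in PT. Most of each sum was Lyz2 (means of 541 CPM in EL and 837 in PT) and Cd14 (240 and 481). Log2 fold changes (PT over EL) ran up to 2.86 (SE 0.13) for C1qb, while Csf1r (0.17, SE 0.10) and Ctss (0.20, SE 0.13) were not called. In such bulk RNA a lower level can mean fewer cells of a type or less RNA per cell, which cannot be told apart. The part of these marker differences in the results below was not tested, except where a ratio to a marker is given.

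Of the 54 genes, 40 had enough counts to be tested. PT was higher for 21 of them (52.5%) and lower for 6 (15%). Among all 13844 genes of the 6-library fit 39.8% were called higher and 40.8% lower, 80.7% in all, and among all 15406 genes of the 5-library fit 38.9% and 40.2%, or 79.1%. The groups did not overlap for 20 members higher and 8 lower in PT, where the shares over all genes were 41.0% and 41.7% (82.7% in all) in 6 libraries and 42.5% and 43.0% (85.5% in all) in 5. The median log2 fold change of the 40 was 0.21, against 0.00 over all genes. A further limit is that 3 pairs of symbols carried identical counts (H2-Q6 with H2-Q8, H2-Q7 with H2-Q9, H2-T22 with H2-T9), and with each pair counted once there were 20 higher and 6 lower of 37. Most of these changes were small. Against a 2-fold minimum edgeR called 2 higher and 3 lower, where the shares among all genes were 7.31% and 17.3% (7.15% and 17.1% in 5 libraries). Without TMM factors, on library totals alone, the median of all genes moved to 0.25, and 25 of the 40 were called higher and 5 lower.

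**Figure D1:**
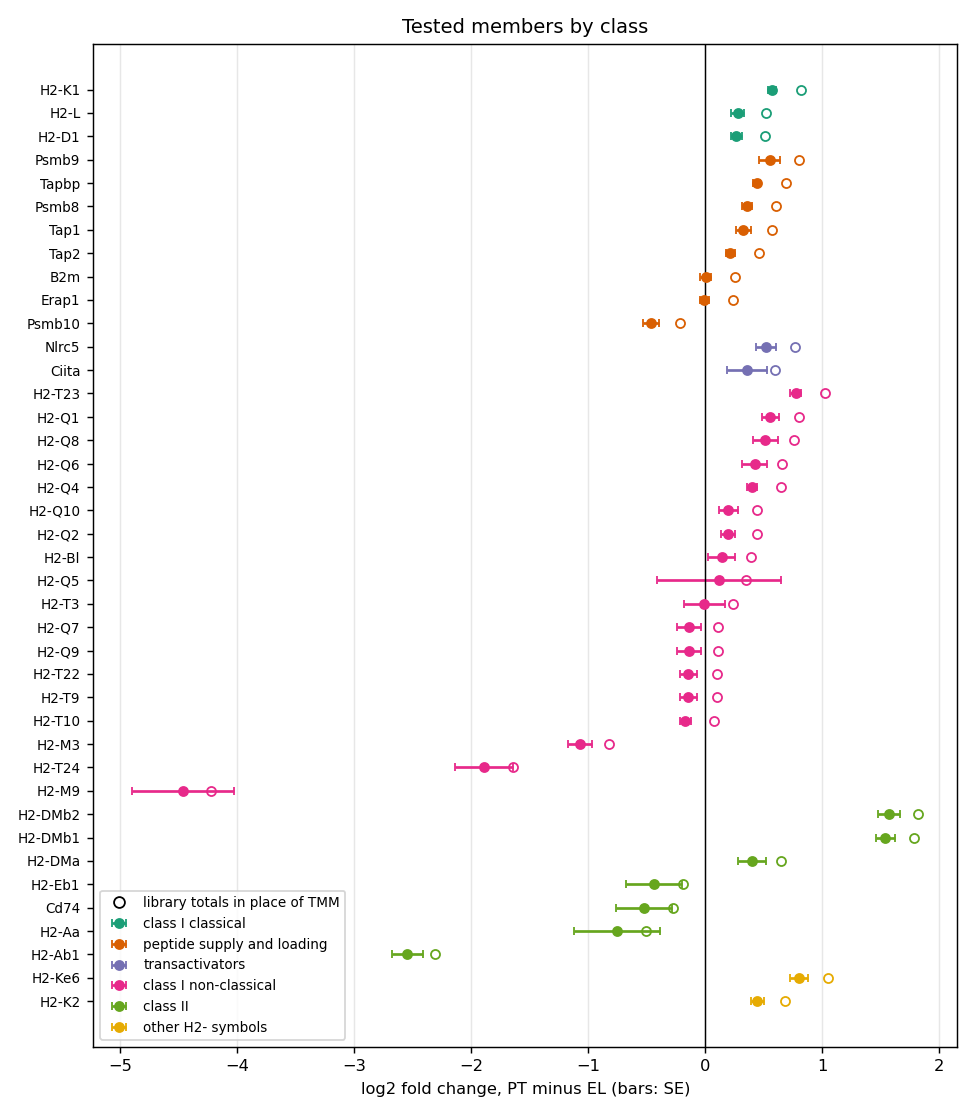
Log2 fold change (PT over EL, horizontal axis) of each of the 40 tested genes by class, with SE bars; open circles give the estimate scaled by library totals alone. The classical class I chains all lie above 0, the class II genes spread from -2.55 for H2-Ab1 to 1.57 for H2-DMb2, and H2-M9 lies lowest at -4.46.

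The classical class I heavy chains, which present peptides to CD8 T cells, were higher in PT spheres. H2-K1 stood at 529, 572 and 553 CPM in EL replicates 1 to 3 and at 809, 843 and 806 CPM in PT replicates 1 to 3. Every PT library lay above every EL library, and the spread within a group was far smaller than the gap between them. The log2 fold change of H2-K1 was 0.57 (SE 0.03; edgeR adjusted p = 5.24e-10), a 1.49-fold rise from 552 ± 21.4 to 819 ± 20.6 CPM (SD, 3 libraries each). H2-D1 stood at 1096, 1253 and 1165 CPM in EL and at 1365, 1468 and 1385 CPM in PT, again without overlap. Its log2 fold change was 0.26 (SE 0.05; edgeR adjusted p = 0.000186). The third symbol, H2-L, gave 0.28 (SE 0.05; edgeR adjusted p = 0.000712), but its count was 0.704 ± 0.00734 of that of H2-D1 in EL and 0.711 ± 0.00394 in PT (SD, 3 libraries each). H2-L has no entry of its own in the RefSeq table used, its count tracked that of H2-D1 in all 6 libraries, and the symbols may share reads, so H2-L is no separate result.

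B2m encodes beta-2 microglobulin, the light chain that class I heavy chains need at the surface. Its level was 728, 826 and 798 CPM in EL and 756, 826 and 780.0 CPM in PT. The groups overlapped fully, with a log2 fold change of 0.01 (SE 0.05; edgeR adjusted p = 0.906), which became 0.25 and was called with library totals. Within each library, where scaling drops out, the count of H2-K1 was 0.727, 0.693 and 0.694 of that of B2m in EL and 1.07, 1.02 and 1.03 of it in PT. The count of H2-D1 was 1.49 ± 0.0292 times that of B2m in EL and 1.79 ± 0.0176 times in PT (SD, 3 libraries each). Both ratios were higher in every PT library, by 1.48-fold for H2-K1 and 1.20-fold for H2-D1. The count ratio of H2-K1 to H2-D1 was also higher in every PT library (0.472 ± 0.0135 in EL, 0.583 ± 0.00938 in PT). Against the epithelial marker Epcam, in contrast, the H2-K1 count ratio was lower in every PT library, at 1.14 ± 0.0233 in EL and 0.702 ± 0.0106 in PT, and so it was against each of the 6 epithelial markers. Of 5 leukocyte markers the H2-K1 ratio was higher in PT for 3, overlapped for 1 and was lower for 1. Of 13 macrophage markers it was higher for 2, overlapped for 6 and was lower for 5. Per kilobase of transcript, B2m had the highest level (911 CPM per kb in EL, 915 in PT), above H2-D1 (557 and 669) and H2-K1 (341 and 506).

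The promoters of these 3 genes are shown because they hold the same module and yet the transcripts differed in response. The letters are those of RefSeq on GRCm38.p6, the 250 bases before the start of H2-K1 (chr17:34000348-34000597, minus strand, before the more upstream of the 2 starts that the promoter table lists, both inside a RefSeq gene span that ends at 34000619), of H2-D1 (chr17:35262844-35263093, plus strand) and of B2m (chr2:122147437-122147686, plus strand). Capitals mark TGANG, the core of the X2 box bound by CREB-type factors, and ATTGG, the Y box bound by NF-Y. In H2-D1 a pair of overlapping TGANG matches is marked as 1 run.
H2-K1: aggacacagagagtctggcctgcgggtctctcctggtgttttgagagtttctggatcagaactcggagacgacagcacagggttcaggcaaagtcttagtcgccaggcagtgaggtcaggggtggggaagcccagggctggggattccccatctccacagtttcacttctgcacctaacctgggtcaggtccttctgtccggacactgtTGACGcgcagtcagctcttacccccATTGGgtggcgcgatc
H2-D1: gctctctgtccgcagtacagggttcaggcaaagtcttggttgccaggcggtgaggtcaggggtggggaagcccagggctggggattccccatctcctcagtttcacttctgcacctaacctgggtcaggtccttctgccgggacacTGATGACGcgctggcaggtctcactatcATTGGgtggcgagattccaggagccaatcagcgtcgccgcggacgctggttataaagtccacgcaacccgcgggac
B2m: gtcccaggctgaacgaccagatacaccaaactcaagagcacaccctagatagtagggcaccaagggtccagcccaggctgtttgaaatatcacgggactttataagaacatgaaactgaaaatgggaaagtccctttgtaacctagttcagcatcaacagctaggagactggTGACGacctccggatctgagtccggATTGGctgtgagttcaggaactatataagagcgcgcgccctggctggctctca
In all 3, 20 bases lie between the elements. The order TGANG, then ATTGG after 10 to 25 bases, on either strand, occurred in 3.77% of 32851 promoter windows that run from 250 bases before to 50 after a start. It was found in 18 of the 38 genes of the set that have such a window: both classical class I chains, 9 of 20 non-classical chains, 6 of 8 class II genes and 1 of 7 supply genes, which was B2m. Narrowed, after the sequences had been seen, to 20 or 21 bases, it occurred in 0.697% of windows and in 7 genes of the set, H2-K1, H2-D1, B2m, H2-Aa, H2-DMb1, H2-DMb2 and H2-M3. These matches describe letters, not binding.

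**Figure D2:**
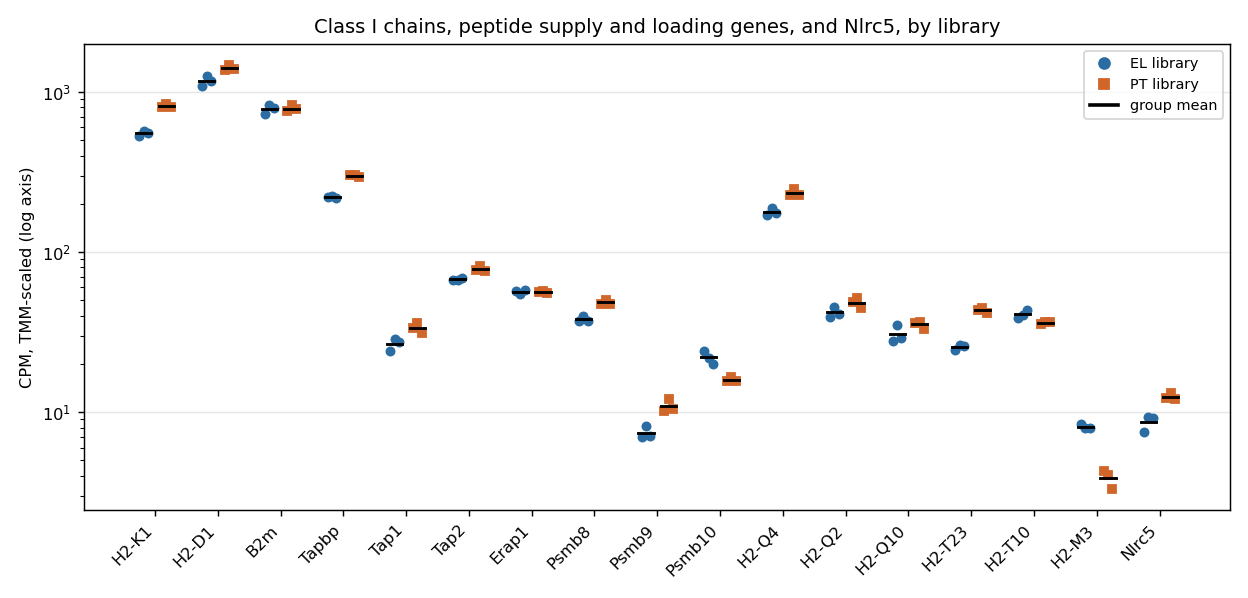
TMM-scaled CPM (log axis) of class I chains, the supply and loading genes and Nlrc5 in each of the 3 EL (circles) and 3 PT (squares) libraries, with bars at group means. The PT libraries lie above the EL libraries for H2-K1, H2-D1, H2-Q4, H2-T23, Tapbp and Nlrc5, overlap with them for B2m, and lie below them for Psmb10 and H2-M3.

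The genes that supply and load peptides were mostly higher in PT: of 8 tested, 5 were called higher (62.5%), 1 lower (12.5%) and 2 were not called. Among all genes the shares were 39.8% and 40.8%. Tapbp encodes tapasin, which holds empty class I molecules beside the transporter. It was at 221, 225 and 217 CPM in EL and 303, 304 and 294 CPM in PT, without overlap (log2 fold change 0.44, SE 0.03; edgeR adjusted p = 1.63e-09). Tap1 and Tap2 encode the subunits of the peptide transporter. Tap1 was at 24.2, 28.7 and 27.3 CPM in EL and 33.3, 36.0 and 31.4 CPM in PT (log2 fold change 0.33, SE 0.07; edgeR adjusted p = 0.000513). Tap2 was at 66.5, 67.1 and 68.4 CPM in EL and 76.8, 81.9 and 75.8 CPM in PT (log2 fold change 0.21, SE 0.04; edgeR adjusted p = 9.36e-05). All PT libraries exceeded all EL libraries for both, and the Tap1 to Tap2 count ratio overlapped between groups (0.397 ± 0.0320 in EL, 0.429 ± 0.0133 in PT). Erap1, the aminopeptidase that trims peptides in the endoplasmic reticulum, was at 57.2, 54.9 and 57.6 CPM in EL and 56.4, 57.0 and 55.5 CPM in PT. The groups overlapped, and its log2 fold change was -0.01 (SE 0.04; edgeR adjusted p = 0.876), which turned to 0.24 and was called with library totals.

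The inducible catalytic subunits of the proteasome, which replace constitutive ones under interferon and change where peptides are cut, did not move together. Psmb8 was at 36.8, 39.7 and 37.3 CPM in EL and 47.6, 50.1 and 47.6 CPM in PT, and Psmb9 at 7.02, 8.13 and 7.12 CPM in EL and 10.1, 12.1 and 10.5 CPM in PT. Both rose without overlap, by 0.35 (SE 0.04; edgeR adjusted p = 2.27e-06) and 0.55 (SE 0.09; edgeR adjusted p = 4.34e-05) on the log2 scale. Psmb10, the last of the 3 inducible subunits, was instead lower in every PT library, at 24.0, 21.8 and 19.9 CPM in EL and 15.6, 16.5 and 15.6 CPM in PT (log2 fold change -0.46, SE 0.07; edgeR adjusted p = 1.33e-05). It lies on chromosome 8 (105935728 to 105938392), whereas Psmb8 and Psmb9 lie inside the MHC on chromosome 17.

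Set against the constitutive subunit that each replaces, the 3 subunits kept their directions. The Psmb8 to Psmb5 count ratio was 0.641 ± 0.00898 in EL against 0.855 ± 0.0396 in PT, and that of Psmb9 to Psmb6 0.0686 ± 0.00655 against 0.0875 ± 0.00878 (SD, 3 libraries each). The Psmb10 to Psmb7 ratio was 0.245, 0.209 and 0.195 in EL and 0.126, 0.137 and 0.127 in PT, 0.604 times the EL value. The groups did not overlap in any of these ratios. Psmb9 and Tap1 are read in opposite directions from the 225 bases between them (chr17:34187331-34187555, GRCm38.p6, shown on the plus strand), and this stretch is given because both genes rose. Capitals mark CCAAT, the Y box core on the opposite strand.
Psmb9-Tap1: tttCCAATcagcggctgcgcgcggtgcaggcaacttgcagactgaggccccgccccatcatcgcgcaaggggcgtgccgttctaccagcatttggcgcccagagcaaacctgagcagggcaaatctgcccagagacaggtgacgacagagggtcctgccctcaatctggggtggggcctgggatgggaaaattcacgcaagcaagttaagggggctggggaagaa
The Tap1 to Psmb9 count ratio was slightly lower in PT (3.60 ± 0.202 in EL, 3.09 ± 0.175 in PT), so the shares of the pair were not fixed.

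**Figure D3:**
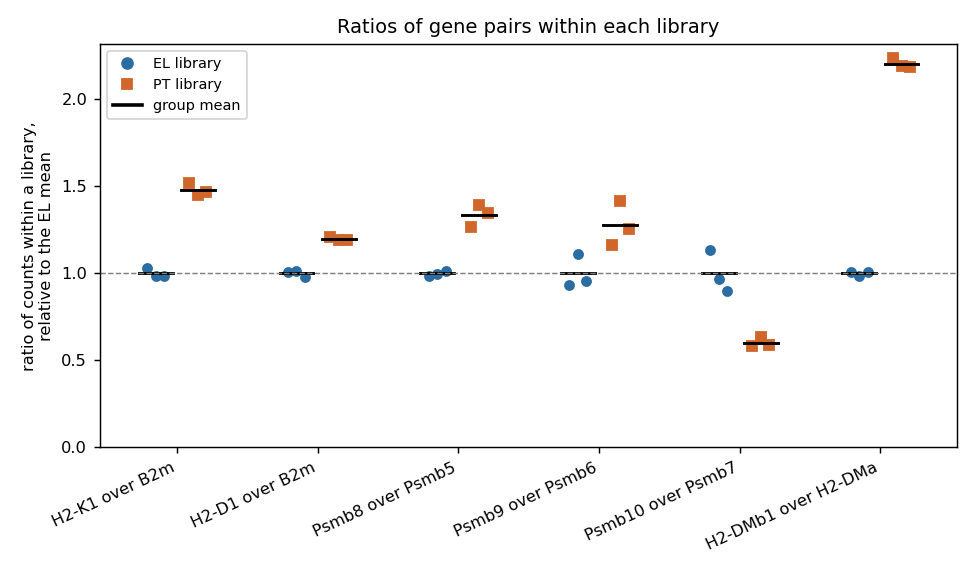
Ratio of the counts of gene pairs within each library, divided by the EL mean of that ratio (vertical axis, from 0), for 3 EL (circles) and 3 PT (squares) libraries, with bars at group means. In PT, H2-K1 over B2m was 1.48-fold, Psmb8 over Psmb5 1.33-fold and H2-DMb1 over H2-DMa 2.20-fold higher, whereas Psmb10 over Psmb7 was 0.604 of the EL mean.

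Of 5 genes listed for peptide loading outside the rule, 4 were lower in PT and 1 higher, where 40.8% of all genes were lower. Hspa5, the general chaperone of the endoplasmic reticulum, had a log2 fold change of -0.85 (SE 0.03), calreticulin (Calr) of -0.67 (SE 0.03) and calnexin (Canx) of -0.55 (SE 0.03). The 1 that rose was Tapbpl, which encodes the tapasin relative TAPBPR and was named after its value was seen (0.73, SE 0.05). Among 9 constitutive and regulator proteasome subunits 6 were higher and none lower, where 39.8% and 40.8% of all genes were. The interferon-inducible activator subunit Psme1 was at 0.48 (SE 0.03), Psmb7 at 0.27 (SE 0.03) and Psme4 at 0.25 (SE 0.04).

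Like the classical heavy chains, Nlrc5, the class I transactivator, was higher in PT, whereas non-classical chains went both ways. It was at 7.52, 9.36 and 9.19 CPM in EL and 12.2, 13.1 and 12.1 CPM in PT, without overlap (log2 fold change 0.52, SE 0.08; edgeR adjusted p = 4.26e-05). Ciita, the class II transactivator, was at 1.28, 1.79 and 1.57 CPM in EL and 2.22, 1.80 and 1.90 CPM in PT. The groups of Ciita did not overlap, although PT replicate 2 lay barely above EL replicate 2, and its log2 fold change of 0.35 (SE 0.17) was not called (edgeR adjusted p = 0.0694). It was called at 0.60 with library totals, at 0.41 with upper-quartile factors, at 0.37 with its transcripts summed and at 0.47 without EL replicate 2. The Nlrc5 to Ciita count ratio overlapped between groups (5.66 ± 0.365 in EL, 6.38 ± 0.890 in PT; SD, 3 libraries each).

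Of 12 interferon signalling genes, from the receptors to their transcription factors, 7 were lower in PT and 2 higher, where 40.8% and 39.8% of all genes were. Socs1, an interferon-induced inhibitor of the pathway, was at 8.38 ± 0.531 CPM in EL and fell by 2.79 on the log2 scale (SE 0.12) to 1.21 ± 0.0933 CPM, and the kinase gene Jak2 (-1.10, SE 0.04) fell as well. The 2 that rose were the transcription factor genes Irf2 (0.34, SE 0.04) and Irf9 (0.37, SE 0.05). Irf1, which acts on class I promoters, had a log2 fold change of 0.01 (SE 0.04; edgeR adjusted p = 0.784). These 3 were named after their values were seen.

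Non-classical class I chains have more limited peptides and tissues. Among the 18 tested, 7 were called higher in PT (38.9%), 4 lower (22.2%) and 7 were not called. Of all genes in the 6-library fit 39.8% were called higher and 40.8% lower, so the share called higher was near that of all genes. The 6 most abundant lay on both sides. H2-Q4 was at 171, 189 and 175 CPM in EL and 228, 249 and 227 CPM in PT (log2 fold change 0.40, SE 0.04; edgeR adjusted p = 2.72e-06). H2-T23 encodes the heavy chain of Qa-1, which shows leader peptides of other class I chains to the inhibitory receptor NKG2A. It was at 24.3, 26.1 and 25.7 CPM in EL and 43.4, 44.9 and 41.8 CPM in PT, and its rise of 0.77 on the log2 scale (SE 0.05; edgeR adjusted p = 5.46e-10) was the highest of the class I chains tested. Neither gene overlapped between groups.

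H2-Q2 was at 39.5, 45.4 and 41.2 CPM in EL and 48.8, 51.4 and 44.3 CPM in PT, and H2-Q10, known as a secreted chain made mainly in liver, at 27.8, 35.1 and 29.2 CPM in EL and 35.9, 36.6 and 33.2 CPM in PT. Both overlapped, with log2 fold changes of 0.20 (SE 0.06; edgeR adjusted p = 0.0119) and 0.20 (SE 0.08; edgeR adjusted p = 0.0393). The H2-Q10 call was lost in the 5 complete libraries (0.13) and on leaving out any library but EL replicate 2 and PT replicate 3 (0.13 to 0.19). H2-T10, known as a ligand of some gamma-delta T cells, is annotated in RefSeq as a transcribed pseudogene. It was at 38.8, 40.5 and 43.1 CPM in EL and 35.2, 36.6 and 36.8 CPM in PT. Its log2 fold change of -0.17 (SE 0.05; edgeR adjusted p = 0.00322) turned to 0.08 with library totals. H2-Q1, next in abundance with 2914 counts in all, was at 7.61, 8.58 and 8.35 CPM in EL and 12.2, 12.1 and 11.7 CPM in PT. It did not overlap between groups (log2 fold change 0.56, SE 0.07; edgeR adjusted p = 4.17e-06). H2-Q7 followed with 2784 counts. It encodes Qa-2, and its count row is the same as that of H2-Q9. Levels of H2-Q7 were 8.55, 11.8 and 11.1 CPM in EL and 9.50, 9.64 and 9.38 CPM in PT. EL replicate 1 lay below and the other EL libraries above all PT libraries, and its log2 fold change was -0.14 (SE 0.10; edgeR adjusted p = 0.215), 0.11 with library totals, and -0.27 and called in the 5 complete libraries and -0.26 without EL replicate 1.

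The remaining tested chains were less abundant. H2-Q6 (0.42, SE 0.11) and H2-Q8 (0.51, SE 0.11) were called higher, from the same counts in 5 and 6 libraries. H2-T22 and H2-T9 (-0.15, SE 0.07) were lower in every PT library but not called (edgeR adjusted p = 0.0831), were at 0.10 with library totals, and were called at -0.19 in 5 libraries and at -0.18 without EL replicate 1. H2-Bl was at 0.14 (SE 0.12), H2-T3, the thymus leukaemia antigen, at -0.01 (SE 0.17) and H2-Q5 at 0.12 (SE 0.53), none called. H2-Bl was called with library totals (0.39).

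Another 3 non-classical genes fell further. H2-M3, whose product shows N-formylated peptides of bacteria and mitochondria, was at 8.47, 7.90 and 7.95 CPM in EL and 4.25, 4.06 and 3.31 CPM in PT (log2 fold change -1.07, SE 0.10; edgeR adjusted p = 1.93e-07). H2-T24 was at 1.498, 1.21 and 1.40 CPM in EL and 0.254, 0.356 and 0.485 CPM in PT (-1.89, SE 0.25; edgeR adjusted p = 5.54e-06). H2-M9, an M chain of a group known from the vomeronasal organ, had 31, 38 and 37 counts in EL and 4, 1 and 1 counts in PT. It passed the filter on low counts only through the EL libraries. Its log2 fold change of -4.46 (SE 0.43; edgeR adjusted p = 1.83e-07) rests on those few PT counts and was -5.39 without PT replicate 1. H2-T24 and H2-M9 passed the 2-fold minimum; H2-M3 did not. H2-M3 holds the 20 to 21 base module described above, as H2-K1 does, and moved in the opposite direction.

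A further 10 genes of this class stayed below the filter. H2-M10.3, H2-M10.4 and H2-M11 had 0 counts in every library that held them, which allows up to 3 counts in a library. H2-M1, H2-M10.1, H2-M10.2, H2-M10.5 and H2-M10.6 had at most 3 counts in any library. H2-M2 had 5, 3 and 7 counts in EL and 2, 4 and 1 in PT, and H2-M5 had 7, 3 and 1 in EL and 2, 0 and 2 in PT.

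Many class I transcripts share sequence, and reads in shared stretches cannot be told apart by symbol. Of the 49 transcripts with a sequence, 17 shared no window of 50 bases with another gene, B2m, H2-Ab1, H2-Aa, Cd74, Psmb8, Psmb9, Psmb10, Erap1, Nlrc5 and Ciita among them. The share of windows found elsewhere was 8.79% for H2-K1, 14.3% for H2-D1, 24.3% for H2-Q4, 28.8% for H2-T23, 40.2% for H2-Q7 and 44.7% for H2-T22, of which most is shared with H2-T10. Values of the Q and T chains are therefore uncertain as single-gene levels. FvB mice carry the q haplotype of the MHC, whereas the mm10 reference is from a strain with the b haplotype. Both groups share the strain, and the effect of allele differences on the counts was not tested.

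Among class II genes, the peptide editor H2-DM was higher in PT, and the presenting chain H2-Ab1 was lower. Of 7 tested genes 3 were called higher (42.9%), 1 lower (14.3%) and 3 were not called. Among all genes of the 6-library fit the shares were 39.8% and 40.8%, so the share called higher was near that of all genes. The 1 lower call was that of H2-Ab1, with 2 EL libraries. H2-DMb1 and H2-DMb2 encode beta chains and H2-DMa the alpha chain of H2-DM, which removes the invariant chain fragment from class II molecules and swaps weakly bound peptides. H2-DMb1 was at 5.11, 4.28 and 4.61 CPM in EL and 13.7, 13.0 and 14.0 CPM in PT (log2 fold change 1.54, SE 0.08; edgeR adjusted p = 1.33e-10). H2-DMb2 was at 3.05, 3.80 and 3.29 CPM in EL and 10.02, 10.11 and 10.01 CPM in PT (1.57, SE 0.09; edgeR adjusted p = 5.22e-10). Both were far apart between groups and were the only members called higher against a 2-fold minimum. They share 27.2% and 31.4% of their 50-base windows with other genes, mostly each other, and their count ratio overlapped between groups (1.40 ± 0.276 in EL, 1.35 ± 0.0589 in PT).

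H2-DMa rose less, from 2.92, 2.52 and 2.64 CPM in EL to 3.55, 3.43 and 3.70 CPM in PT (log2 fold change 0.40, SE 0.12; edgeR adjusted p = 0.00641). The H2-DMb1 to H2-DMa count ratio was 1.75, 1.70 and 1.75 in EL and 3.87, 3.79 and 3.78 in PT, 2.20 times higher. Every PT library lay above every EL library in this ratio. Relative to markers of cells that could hold it, the direction of H2-DMb1 depended on the marker. Its count ratio was higher in every PT library for all 5 leukocyte markers, with Ptprc at 0.587 ± 0.190 in EL and 1.10 ± 0.159 in PT (SD, 3 libraries each). Of 13 macrophage markers it was higher for 9, overlapped for 1 and was lower in every PT library for 3, the complement genes C1qa, C1qb and C1qc. Of 6 epithelial markers it was higher for 1 (Epcam), overlapped for 2 and was lower for 3 (Krt8, Krt18 and Cldn3). These counts over whole marker lists were added after the values had been seen.

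H2-Ab1, the beta chain of the presenting molecule I-A, had 367 and 349 counts in EL replicates 2 and 3 and 59, 87 and 101 counts in PT, or 8.95 and 8.43 CPM against 1.11, 1.57 and 1.75 CPM. Its log2 fold change was -2.55 (SE 0.13; edgeR adjusted p = 1.97e-17, n = 2 and 3), and it was the only class II gene called lower against a 2-fold minimum. H2-Aa, the alpha chain of the same molecule, had 25, 45 and 78 counts in EL and 29, 48 and 40 in PT, or 0.614, 1.13 and 1.94 CPM against 0.566, 0.899 and 0.719 CPM. The groups overlapped, since EL replicate 1 lay among the PT libraries and EL replicate 3 far above them. The log2 fold change of H2-Aa was -0.75 (SE 0.37; edgeR adjusted p = 0.0833). It was -0.26 without EL replicate 3, and -1.08 and called without EL replicate 1. With all 6 libraries DESeq2 called it at -0.77 (DESeq2 adjusted p = 0.0487). In the 5 libraries that hold both chains, the H2-Ab1 to H2-Aa count ratio was 8.16 and 4.47 in EL and 2.03, 1.81 and 2.52 in PT, so the beta chain was lower by more than the alpha chain.

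Cd74 encodes the invariant chain, which guides class II molecules to endosomes. It had 100, 132 and 187 counts in EL and 93, 137 and 159 in PT, with levels of 2.46, 3.32 and 4.66 CPM against 1.81, 2.57 and 2.86 CPM that overlapped (log2 fold change -0.52, SE 0.24; edgeR adjusted p = 0.0674). It was -0.25 without EL replicate 3, and called at -0.72 without EL replicate 1 and at -0.66 without PT replicate 3. With all 6 libraries DESeq2 called the log2 fold change of Cd74 at -0.54 (DESeq2 adjusted p = 0.0231). H2-Eb1, the beta chain of the other presenting molecule, I-E, was at 0.614, 0.906 and 0.947 CPM in EL and 0.644, 0.599 and 0.575 CPM in PT (-0.44, SE 0.24; edgeR adjusted p = 0.107), and called at -0.61 without EL replicate 1. The DM-inhibiting H2-O chains were near the detection limit, with 8, 8 and 2 counts in EL and 11, 9 and 2 in PT for H2-Oa, and 4, 2 and 0 in EL and 8, 8 and 7 in PT for H2-Ob. H2-Ea-ps had 1, 0 and 6 counts and H2-Eb2 0, 1 and 5 counts in EL, most of them in EL replicate 3, and both had 0 in every PT library.

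**Figure D4:**
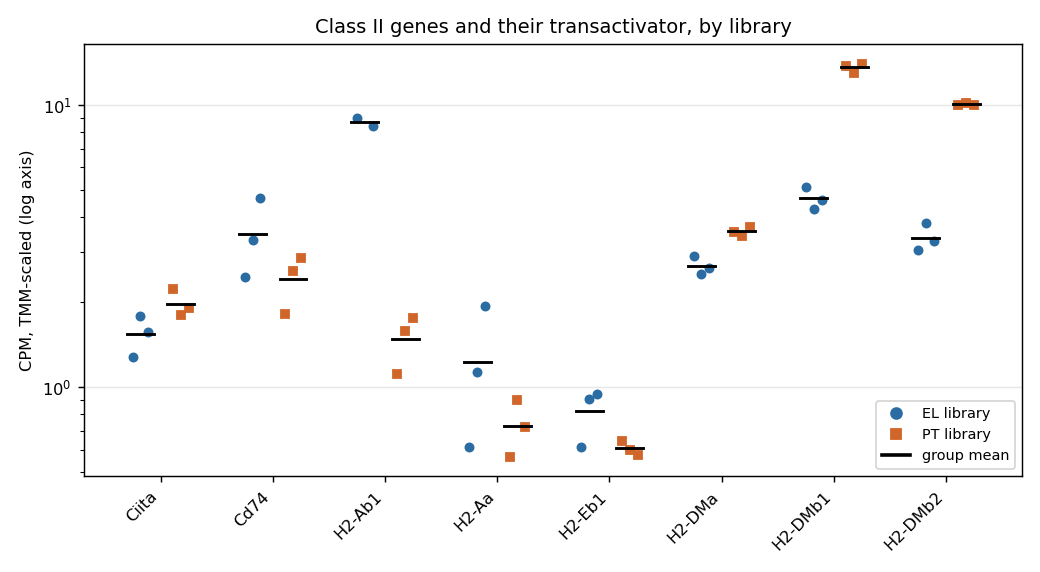
TMM-scaled CPM (log axis) of Ciita and the tested class II genes in each EL (circles) and PT (squares) library, with bars at group means; H2-Ab1 has 2 EL libraries. H2-DMb1 and H2-DMb2 lie higher in all PT libraries, H2-Ab1 lies lower, and H2-Aa, Cd74 and H2-Eb1 overlap, with EL replicate 3 the highest of the EL libraries for all 3.

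Levels of antigen-presenting cell markers are given beside these values. Of 9 dendritic cell markers 5 were tested, 4 lower and 1 higher in PT, where 40.8% and 39.8% of all genes were. The list sums were 15.3 to 17.7 CPM in EL and 15.1 to 19.2 in PT. Ccr7, the receptor of migrating dendritic cells, had 56, 55 and 32 counts in EL and 1, 0 and 0 in PT, Clec9a had 14, 13 and 25 against 0, 2 and 0, and Cd209a had 0 in every library. The 1 that rose was Itgax, shared with macrophages (0.84, SE 0.12). Of 6 B cell markers only Cd22 was tested, and it was higher, with list sums of 2.84 to 5.78 CPM in EL and 4.59 to 5.32 in PT. The B cell genes Ms4a1 (6, 4 and 25 counts) and Cd79b (5, 2 and 26) were highest in EL replicate 3, the library that was also highest for H2-Aa and Cd74, and Ms4a1 had 0 counts in PT. The part of these cells in the class II values was not tested. Of 5 leukocyte markers 4 were higher in PT and 1, Cd53, lower (-1.87, SE 0.10), with sums of 120.5 to 146 CPM in EL and 84.1 to 97.3 in PT. Relative to Ptprc, the H2-Ab1 count ratio was 1.00 and 0.926 in EL and 0.106, 0.120 and 0.138 in PT, and it was lower in every PT library for all 5 leukocyte, 13 macrophage and 6 epithelial markers. For Cd74 (0.415 ± 0.0717 of Ptprc in EL, 0.191 ± 0.0251 in PT) the ratio was lower for all of these but Cd53, to which it was higher in every PT library. The H2-Aa ratio (0.142 ± 0.0575 and 0.0577 ± 0.00740 of Ptprc) was likewise higher to Cd53, overlapped for Laptm5 and Csf1r, and was lower for the other markers.

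The promoters of H2-DMb1 and H2-Aa hold the same module, and they are shown because H2-DMb1 was called higher whereas H2-Aa was not called and had a log2 fold change below 0. They are the 250 bases before the starts at chr17:34152941-34153190 (plus strand) and chr17:34287824-34288073 (minus strand), RefSeq, GRCm38.p6, with TGANG and ATTGG in capitals as above.
H2-DMb1: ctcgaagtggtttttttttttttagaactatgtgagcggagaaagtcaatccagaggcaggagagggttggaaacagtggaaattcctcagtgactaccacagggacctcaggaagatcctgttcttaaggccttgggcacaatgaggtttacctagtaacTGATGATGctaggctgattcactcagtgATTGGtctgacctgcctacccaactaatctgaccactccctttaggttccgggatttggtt
H2-Aa: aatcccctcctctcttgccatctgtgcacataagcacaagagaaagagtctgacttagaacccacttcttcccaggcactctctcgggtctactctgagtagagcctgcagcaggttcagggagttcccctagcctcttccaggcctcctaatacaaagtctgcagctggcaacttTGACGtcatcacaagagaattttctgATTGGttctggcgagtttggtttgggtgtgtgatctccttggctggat
The gap between the elements is 20 bases in H2-DMb1, counted from the second of its overlapping TGANG matches, and 21 in H2-Aa. Across the 7 genes with this spacing the log2 fold changes ran from -1.07 for H2-M3 and -0.75 for H2-Aa, through 0.01 for B2m, 0.26 for H2-D1 and 0.57 for H2-K1, to 1.54 for H2-DMb1 and 1.57 for H2-DMb2.

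Other genes of class II processing and regulation went both ways, with 10 of 15 higher in PT and 3 lower. Of all genes 39.8% were called higher and 40.8% lower. The endosomal proteases cathepsin L (Ctsl, -1.39, SE 0.03) and cathepsin B (Ctsb, -1.10, SE 0.03) were lower, while Sppl2a, the membrane protease that clears the last invariant chain fragment, was higher (1.25, SE 0.03). All 3 subunits of RFX, the complex bound to the X box, were higher and were named after their values were seen: Rfx5 (0.76, SE 0.05), Rfxank (0.45, SE 0.04) and Rfxap (0.34, SE 0.07). Of 7 tested MHC-like genes outside the H2 region 4 were lower and 1 higher, where 40.8% and 39.8% of all genes were. The lowest values were those of Fcgrt, the heavy chain of the neonatal Fc receptor that also pairs with beta-2 microglobulin (-2.73, SE 0.04), Raet1e, a ligand of the receptor NKG2D (-2.89, SE 0.17), and Procr, the endothelial protein C receptor (-1.88, SE 0.10), beside the fall of all 6 endothelial markers.

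The members on chromosome 17 can also be read in their order along it. The 42 members placed there in RefSeq (GRCm38) span 3.36 Mb, from 33919478 to 37274485. From Tapbp at the proximal end to Tap2, all 11 tested members were called higher, where 39.8% of all genes were. Among them were the non-presenting neighbour H2-Ke6 (0.80, SE 0.08, although 79.8% of its windows are shared with the overlapping model Gm20427) and H2-K2 (0.45, SE 0.06). The next 3 tested genes, H2-Ab1, H2-Aa and H2-Eb1, all had log2 fold changes below 0, of which only that of H2-Ab1 was called. The H2-Ab1 call came from the 5 libraries without EL replicate 1, in which H2-Aa (-1.08) and H2-Eb1 (-0.62) were called as well. In the distal stretch with H2-D1 and the Q, T and M chains both directions occurred. Genes in between that are not members were not examined.

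**Figure D5:**
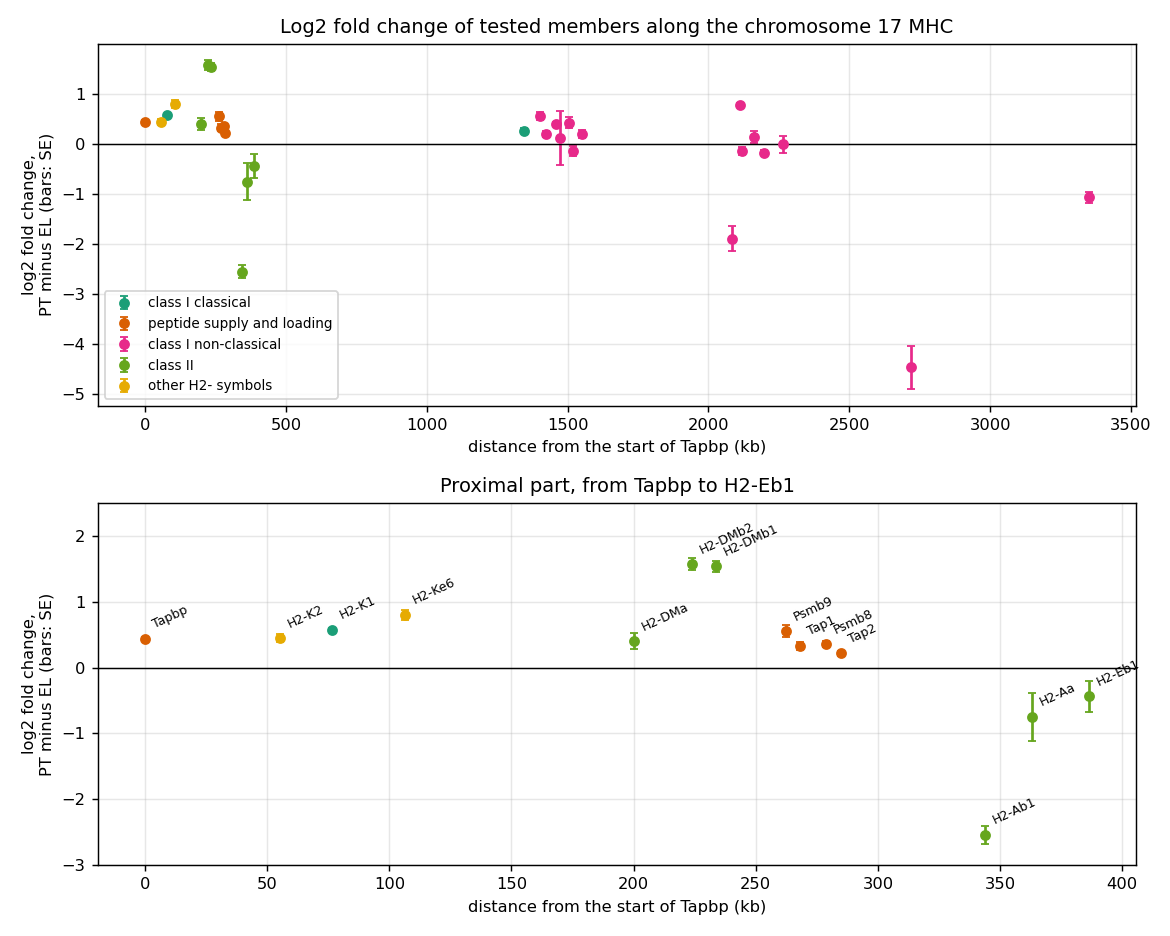
Log2 fold change (PT over EL, vertical axis, SE bars) of tested members against distance from the start of Tapbp on chromosome 17 (kb), over the whole span (top) and from Tapbp to H2-Eb1 (bottom). All members from Tapbp to Tap2 lie above 0, and H2-Ab1, H2-Aa and H2-Eb1, which follow, lie below it.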

How the data were processed

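The authors deposited raw whole-number counts per RefSeq transcript, 1 table a library, with no normalisation. The submitters' processing notes name the builds mm10 and hg19 and, as tools, STAR, featureCounts and DESeq2. How strand was handled, and any version or parameter, is not given in the sources used here. For EL replicate 1 the table ends inside a row after 27664 of 33068 rows, and the 5404 rows absent from it hold 5.54% to 6.96% of the counts of the other libraries.

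Each symbol was represented by the transcript whose mean count was highest. Genes were filtered with filterByExpr, scaled with TMM factors (0.914 to 0.922 for EL, 1.09 for PT) and tested with edgeR 4.0.16 in R 4.3.3 (robust quasi-likelihood fit, Benjamini-Hochberg adjustment over all 13844 tested genes in 6 libraries or 15406 in 5, threshold 0.05, and glmTreat with a 2-fold minimum). The test was checked on simulated counts. Alternatives used DESeq2 1.42.0, limma 3.58.1 and other factors and filters. No test was made of count ratios. Libraries of a group correlated at 0.995 or above across genes, and libraries of different groups at 0.839 to 0.847.

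The members, the gene lists and the tests were chosen with earlier results of these data known. Every member with at least 10 counts is named, with values per library for the supply genes, classical class I chains, class II genes, transactivators and the 6 most abundant non-classical chains. Of each pathway list up to 3 genes with the smallest p-value are named, except where stated, and cell type markers were picked for naming after their values were seen; some genes of these lists are not reported here. Promoter windows are from RefSeq on GRCm38.p6, matched by symbol for 38 of 54 members. Promoters of H2-Ab1, Nlrc5, Ciita and Cd74 are named only. Positions are from RefSeq, which matched 50 members, and shared windows from GENCODE M21 transcripts, which matched 49.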

Additional observations from a re-analysis of the deposited data

How the results depend on the processing

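Of the 40 tested genes, 25 kept their direction and call under those of the 16 alternatives in which they had a fit of their own. Among these 25, H2-M9 had no fit with a minimum of 20 counts. H2-Ab1, H2-K2 and H2-Q6 had no separate fit without EL replicate 1, and the 5 complete libraries were already their main fit. The counts called higher among classical class I (3), class II (3) and the 2 other H2- symbols, and lower among supply genes (1), were the same in every alternative. Supply genes called higher numbered 5, but 7 with library totals. Non-classical chains called higher numbered 7, against 8 with library totals, 6 in the 5 complete libraries and 6 to 7 without single libraries. Class II genes called lower numbered 1, against 3 with no low-count filter and with DESeq2 and 4 in the 5 complete libraries, and 1 to 4 without single libraries (4 without EL replicate 1, 2 without PT replicate 3). With DESeq2 the added calls were Cd74 and H2-Aa. With no filter Cd74, H2-Aa and H2-Eb1 stayed uncalled, and the added calls were of class II genes too low in counts for the main test. Non-classical chains called lower numbered 4, against 3 with library totals and with a minimum of 20 counts, 8 in the 5 complete libraries and 4 to 8 without single libraries (8 without EL replicate 1). Transactivators called higher numbered 1, against 2 with upper-quartile factors, library totals or summed transcripts, and 1 to 2 without single libraries (2 without EL replicate 2). Without single libraries 10775 to 11283 genes were called in 6 libraries and 11539 to 11968 in 5, where leaving out an EL library leaves 1, assumed to vary like the others.

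Directions turned for the following genes, of which H2-T10 was called, and the causes were not tested. B2m was at -0.0038 with RLE factors and with DESeq2, at -0.050 in 5 libraries, and from -0.044 to 0.045 without single libraries. With upper-quartile factors Erap1 was at 0.050 and H2-T3 at 0.047. With library totals Erap1 was at 0.24, H2-T3 at 0.24, H2-Q7 and H2-Q9 at 0.11, H2-T10 at 0.075 and H2-T22 and H2-T9 at 0.10. With no low-count filter Erap1 was at 0.0071 and H2-T3 at 0.0046, and with summed transcripts at 0.0042 and 0.0015. H2-T3 was at 0.065 in 5 libraries. Without single libraries Erap1 ran from -0.028 to 0.0066, H2-T3 from -0.13 to 0.072 and H2-Q5 from -0.33 to 0.78.

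Replicate numbers did not pair the libraries: deviations of same-numbered libraries correlated at 0.022, 0.0084 and -0.0022, within the range of all pairs (-0.031 to 0.027). With a replicate block 11218 genes were called in 6 libraries against 11166 without, and 12053 against 12192 in 5, and class II genes called lower numbered 3, as Cd74 and H2-Aa passed. Members below the low-count filter were not tested, among them H2-Oa, H2-Ob, H2-M2 and H2-M5, which had at least 10 counts in all.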
